A study of Mus musculus with 12 samples.

Results

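The comparison described here is C3aRA added to oxyhaemoglobin (oxy-Hb) against oxy-Hb alone in BV2 cells, an immortalised line of mouse microglia. It was chosen by the labels and not by any measured value: the 3 libraries labelled oxy-Hb+C3aRA and the 3 labelled oxy-Hb, which are 6 of the 12 samples of the series. Of 22935 genes listed, 13625 had enough counts to be tested. Both groups received 10 µM oxy-Hb, and 1 of them received 50 µM C3aRA in addition, given in PBS. No C3a was added to either group. The labels do not spell out C3aRA, and the labels used here give no time of exposure. The series also holds PBS samples, which were not analysed here, and samples with C3a. No sample had C3aRA without oxy-Hb, so an action of C3aRA that needs oxy-Hb and one that does not cannot be told apart. BV2 is 1 line immortalised with oncogenes, and nothing in the labels tells if the replicates come from separate cultures. The p-values below then measure only how far these samples spread, and that spread can be technical.

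As background, oxy-Hb is the oxygen-carrying protein set free as red cells break down after a bleed, and microglia take it up and break down its haem. C3a is the small fragment cut from complement component C3, and its receptor C3aR is a G protein-coupled receptor of myeloid cells. The series title places the pathway in injury of white matter in a model of subarachnoid haemorrhage. The comparison asks which transcripts differ when C3aRA is present during exposure to oxy-Hb.

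Library totals ran from 12934794 to 18184027 counts, at which 3 counts equal 0.165 to 0.232 CPM, the count scaled to library size. That floor covers counting error only. The 14 marker genes of microglia summed to 3931 to 4269 CPM with oxy-Hb and 4319 to 4516 CPM with C3aRA. Among them Tyrobp stood at 144 to 186 CPM and Csf1r at 61.5 to 72.4 CPM, while Aif1 stood at 2.85 CPM or below. Summed astrocyte, red cell, lymphocyte and endothelial or fibroblast markers stood at 1.80 CPM or below, oligodendrocyte markers at 30.1 to 35.3 CPM. Neuronal markers summed to 21.3 to 24.7 CPM with oxy-Hb and 13.4 to 15.5 CPM with C3aRA, most of it Ina and Syn1, and the part of such differences in the results was not tested. The first principal component of expression carried 28.8% of the variance, with scores of -24.8 to -13.99 in the oxy-Hb libraries and 14.9 to 23.95 in the C3aRA libraries. In bulk RNA of this kind, fewer cells with a transcript and less of it per cell cannot be told apart.

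With C3aRA, 603 of the 13625 genes changed, 4.43% of those tested, by edgeR's quasi-likelihood test with Benjamini-Hochberg adjustment and a threshold of 0.05. Of these, 338 (2.48%) rose and 265 (1.94%) fell. The shifts were small: the median size of a called change was 0.37 on the log2 scale, 15 rises and 81 falls reached 1.5-fold, and 5 calls remained when a fold above 1.2 was required. Before adjustment 2574 genes had a p below 0.05, where about 681 would be expected with no difference. The CPM values of the groups did not overlap for 3179 genes (23.3%). The count of calls depended on single libraries: it was 137 without oxy-Hb replicate 2, 131 without C3aRA replicate 1 and 192 without C3aRA replicate 2, and 421 to 655 without 1 of the other three. Called in all 6 of these fits were 35 of the 338 rises and 41 of the 265 falls. It also depended on other libraries of the series. Fitted together with the 3 oxy-Hb+C3a libraries, no gene passed in edgeR (0 calls, lowest adjusted p = 0.467, 1153 genes at an unadjusted p below 0.05), and with C3a replicate 2 left out of that fit 475 passed. The balance of rises and falls moved with the scaling. Rises were 56.1% of calls with TMM scaling, 43.3% with upper quartile scaling (233 and 305) and 20.3% with total count scaling (124 and 486).

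**Figure D1:**
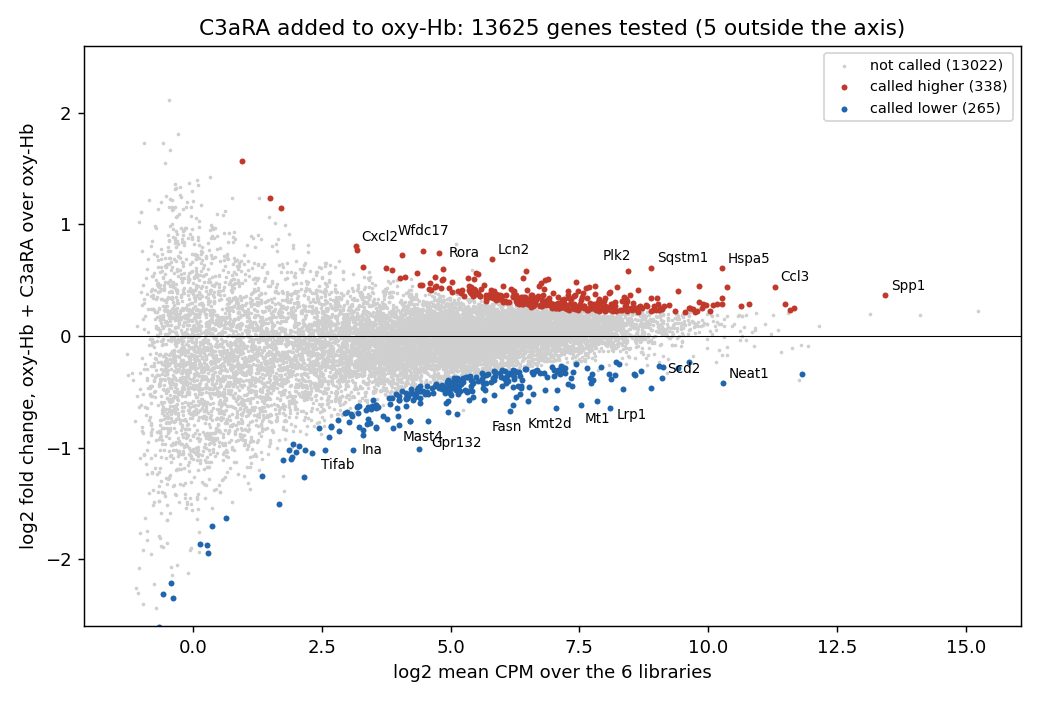
Log2 fold change of oxy-Hb with C3aRA over oxy-Hb against the log2 mean CPM over the 6 libraries, for the 13625 tested genes (5 lie beyond the axis). Red points are the 338 called rises and blue points the 265 called falls. Most called genes lie within 1 log2 unit of the zero line.

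The 2 genes of lowest p, Lrp1 and Kmt2d, fell. Lrp1 (ENSMUSG00000040249, chromosome 10, 127538161 to 127621148 in GRCm38), an endocytic receptor that also takes up haem bound to haemopexin, stood at 349, 329 and 316 CPM with oxy-Hb and at 195, 200.1 and 241 CPM with C3aRA. All C3aRA libraries lay below all oxy-Hb libraries, with a log2 fold change of -0.64 ± 0.07 (SE) and an adjusted p of 4.55e-06 in edgeR's quasi-likelihood test. Kmt2d, a histone H3 lysine methyltransferase, went from 171, 159 and 155 CPM to 94.8, 108 and 108 CPM (-0.64 ± 0.08, adjusted p = 4.55e-06). Synj2, a phosphoinositide phosphatase of membrane traffic (-0.47), Dynll1, a dynein light chain (-0.58), Plec, the cytolinker plectin (-0.58), and Polr2a, the largest subunit of RNA polymerase II (-0.49), fell as well. Each of these 6 calls held whichever library was left out.

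Among the rises the lowest p was that of Sqstm1 (ENSMUSG00000015837, chromosome 11, 50199366 to 50210827), the autophagy receptor p62. It stood at 418, 361 and 351 CPM with oxy-Hb and 649.6, 552 and 526 CPM with C3aRA, a rise of 0.61 ± 0.08 (SE) with an adjusted p of 3.17e-05 in edgeR. Lcn2, the siderophore-binding lipocalin, rose from 46.6, 45.1 and 36.8 CPM to 75.5, 65.9 and 66.3 CPM (0.69 ± 0.10, adjusted p = 0.000148). Plk2, a polo-like kinase induced by stress, went from 309.6, 254 and 270.0 CPM to 470.2, 368 and 409.7 CPM (0.58 ± 0.08, adjusted p = 0.000156). In each of these genes the groups did not overlap, and each call held in all 6 fits that left out 1 library.

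By size, the leading rises among genes of at least 5 CPM were Cxcl2 (0.81), Rab20, a small GTPase of phagosomes (0.77), Wfdc17 (0.76), Rora, a nuclear receptor of the clock (0.74), Lcn2, Sqstm1 and Gadd45a, a growth arrest gene induced by DNA damage (0.61). Wfdc17, a secreted protein of activated macrophages, stood at 15.7, 17.3 and 16.1 CPM against 26.7, 31.0 and 25.7 CPM. The leading falls were Ina, the neurofilament protein internexin (-1.02), Tifab, an inhibitor of the adaptor TIFA (-1.02), Ctnnal1 (-0.90), Capn15 (-0.88), Zfp579 (-0.85) and Rbm14 (-0.84). Tifab went from 8.16, 7.41 and 8.19 CPM to 3.83, 4.14 and 3.69 CPM, and Ina from 10.6, 10.9 and 12.8 CPM to 5.99, 5.67 and 5.26 CPM. The calls of Wfdc17, Rora, Lcn2, Sqstm1, Ina, Tifab and Capn15 held in all 6 fits. Those of Rab20, Gadd45a and Zfp579 held in 2, that of Cxcl2 in 3, and those of Ctnnal1 and Rbm14 in 4.

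Some of the rises were of genes of the unfolded protein response, the programme by which cells meet misfolded protein in the endoplasmic reticulum (ER). Its sensors are Atf6, Eif2ak3 (PERK) and Ern1, and its best known target is Hspa5, the ER chaperone BiP. ATF6 and XBP1 act on target promoters through the ER stress element, a CCAAT and a CCACG separated by 9 bases. The 250 bases before the RefSeq start of Hspa5 (GRCm38.p6, chr2:34771840-34772089, plus strand) are shown because Hspa5 is the ER chaperone that moved most, with CCAAT and CCACG, from -65 to -47, in capitals. The gene model of the deposited table begins inside this window, at 34771970.
Hspa5: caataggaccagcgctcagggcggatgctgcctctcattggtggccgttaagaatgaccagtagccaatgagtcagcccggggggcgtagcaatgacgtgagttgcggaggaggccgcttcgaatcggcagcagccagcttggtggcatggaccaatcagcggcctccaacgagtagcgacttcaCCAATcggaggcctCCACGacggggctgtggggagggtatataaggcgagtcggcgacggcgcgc

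Hspa5 stood at 1046, 932 and 972 CPM with oxy-Hb and at 1806, 1394 and 1291 CPM with C3aRA. The groups did not overlap, and the highest C3aRA library was replicate 1. Its rise was 0.61 ± 0.09 (SE) on the log2 scale with an adjusted p of 0.00104 in edgeR; it ranged from 0.45 to 0.71 over the fits that left out 1 library, and the call was lost without oxy-Hb replicate 3. The median of the 35 ER chaperones and folding enzymes tested was 0.11, against -0.01 over all genes. Of them 4 rose and 0 fell, a share of 11.4% against 4.43% called over all genes. Besides Hspa5 these were Erp44, which retains folding enzymes (0.38), Sil1, the nucleotide exchange factor of BiP (0.53), and Pdia4, a disulphide isomerase (0.26). The count of rises was 1 without oxy-Hb replicate 3, C3aRA replicate 1 or C3aRA replicate 2, and 1 with total count scaling. The median was 0.05 to 0.11 under the 3 other scalings.

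The ER stress element was shared by chaperones that were and were not called. It occurred, on either strand, in 8 of the 29 chaperone genes with a RefSeq promoter (250 bases before to 50 after the start), against 17 of the 9605 tested genes with one (0.177%) and 0.119% of all 32851 promoters in the table. Hspa5 alone of the 8 was called. The others, Ero1lb (0.18), Calr (0.15), Dnajc3 (0.15), Hsp90b1 (0.13), Creld2 (0.12), Pdia6 (0.10) and Canx (0.02), did not pass. A match of letters is a description of the window, not a binding site.

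Among 19 tested sensors and transcription factors of the response, 4 rose and 0 fell (21.1%). A positive log2 fold change was found in 11 of the 19. Their median was 0.04, and -0.02 with total count scaling. Atf6 went from 215, 199 and 211 CPM to 275, 256 and 254 CPM (0.33 ± 0.07, adjusted p = 0.00458), with no overlap. Eif2ak3 stood at 11.2, 12.02 and 11.4 CPM against 20.0, 17.8 and 14.7 CPM, a rise of 0.59 ± 0.16 (adjusted p = 0.0273). Nfe2l1, a membrane-bound factor released from the ER (0.37), and Ppp1r15a, the subunit that reverses eIF2α phosphorylation (0.41), were the others. None of the 4 was called without C3aRA replicate 1. Ddit3, the factor CHOP, stood at 34.8, 22.3 and 16.8 CPM against 54.2, 43.0 and 34.3 CPM; its groups overlapped and it did not pass (0.83 ± 0.30, adjusted p = 0.209). Xbp1 (0.21, adjusted p = 0.115) did not pass either. In ER-associated degradation the median of 27 genes was 0.07, with 19 of them above zero. Of the 27, 2 rose (7.41%), Sel1l, the partner of the ligase Hrd1 (0.34), and Herpud1 (0.38). The ligase gene itself, Syvn1, lay lower without passing (-0.62 ± 0.19, adjusted p = 0.0535). Neither rise was called without oxy-Hb replicate 2 or without C3aRA replicate 1. Of 57 genes of ER entry, glycosylation and transport to the Golgi, 2 rose, Copb1 (0.30) and Gfpt1 (0.25), and Dad1 fell (-0.40). The share called, 5.26%, was near the 4.43% of all genes.

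The PERK arm also feeds the integrated stress response, in which phosphorylated eIF2α favours translation of ATF4, and ATF4 in turn activates genes of amino acid supply and tRNA charging. Of 32 tested targets of this response, 6 rose and 2 fell, a share of 25% against 4.43% called over all genes. The median was 0.14, against -0.01 over all genes. Asns, asparagine synthetase, stood at 308, 304 and 283 CPM with oxy-Hb and 370.2, 382 and 379 CPM with C3aRA, without overlap (0.34 ± 0.07, adjusted p = 0.00248). Trib3, a pseudokinase that restrains ATF4, rose from 44.4, 31.6 and 32.7 CPM to 55.3, 47.6 and 57.3 CPM (0.56 ± 0.12, adjusted p = 0.00493). Gdf15, a stress cytokine (0.50), Gpt2, an alanine aminotransferase (0.35), Nupr1, a stress-induced chromatin protein (0.34), and Phgdh, the first enzyme of serine synthesis (0.23), rose too. The falls were those of Slc1a5, a glutamine transporter (-0.32), and Ddit4, an inhibitor of mTORC1 (-0.62). Atf4 mRNA stood at 501, 512 and 466 CPM against 548, 578 and 591 CPM; the groups did not overlap, but its adjusted p was 0.0523. The count of rises was 1 without oxy-Hb replicate 2 and 3 without C3aRA replicate 1 or 2, and the call of Asns held in every one of the 6 fits.

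Aminoacyl-tRNA synthetases, the enzymes that load each tRNA with its amino acid, held the largest share of calls of the lists with at least 9 tested genes. Of the 23 cytosolic ones 8 rose and 0 fell (34.8%), against 4.43% called over all genes. A positive log2 fold change was found in 22 of the 23 and in 47.9% of all genes. In 17 every C3aRA library lay above every oxy-Hb library, as in 1617 of all 13625 genes. The median of the 23 was 0.18. Sars, for serine, led with 308, 307 and 327 CPM against 402, 415 and 395 CPM (0.36 ± 0.06, adjusted p = 0.00111), and held its call in all 6 fits. Qars (0.26), Yars (0.25), Gars (0.24), Aars (0.24), Iars (0.23), Nars (0.22) and Eprs (0.22) rose by less. Tars (0.19, adjusted p = 0.0764), Cars (0.21, adjusted p = 0.0982) and Wars (0.20, adjusted p = 0.118) did not pass. These small rises rested on the full set of libraries and on the scaling: the count was 1 when either oxy-Hb replicate 2 or a C3aRA library was left out, 5 without oxy-Hb replicate 1 or 3, 2 with upper quartile scaling and 1 with total count scaling, and the median stayed at 0.12 or above under the other scalings.

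ATF4 binds a composite element whose core was searched as TGATGNAA on both strands of the RefSeq promoters, a gene counting where any of its starts had it. It was found in 19 of 265 rises with a promoter (7.17%), in 6 of 210 falls (2.86%), in 274 of all 9605 tested genes with one (2.85%), and in 3.97% of all 32851 promoters. Among integrated stress response targets it occurred in 9 of 28, and among synthetases in 5 of 16. These windows of 30 bases (GRCm38.p6) show the element, in capitals, in called genes of both lists, and in the genes Synj2 and Gpr132, which fell.
Asns: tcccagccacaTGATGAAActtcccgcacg
Trib3: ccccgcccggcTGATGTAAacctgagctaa
Nupr1: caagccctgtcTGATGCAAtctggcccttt
Gars: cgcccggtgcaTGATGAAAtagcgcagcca
Yars: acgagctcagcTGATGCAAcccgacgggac
Iars: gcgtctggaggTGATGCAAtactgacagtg
Synj2: gcaaggaagagTGATGTAAcaggccagacc
Gpr132: tgtcatcacagTGATGTAAgcctgacgcta
They lie at chr6:7693214-7693243 (Asns, minus strand), chr2:152344028-152344057 (Trib3, plus strand, read against the gene), chr7:126625562-126625591 (Nupr1, plus strand, read against the gene), chr6:55037960-55037989 (Gars, minus strand, against the gene), chr4:129189895-129189924 (Yars, plus strand), chr13:49682126-49682155 (Iars, minus strand, against the gene), chr17:5975469-5975498 (Synj2, plus strand) and chr12:112861021-112861050 (Gpr132, minus strand). In Trib3, Yars and Iars the element begins 4 to 15 bases after the RefSeq start, and in the others before it. Log2 fold changes of the 9 targets with the element ran from about zero for Slc1a4 to 0.61 for Chac1, which did not pass (adjusted p = 0.143), with 3 called, Asns, Trib3 and Nupr1. The 5 synthetases with it, among them the 3 shown and Tars, lay between 0.19 and 0.25, and the 11 without it between -0.19 and 0.36. The same letters stood before a RefSeq start of Synj2 and one of Gpr132, so they occurred with both directions of change. Both of these windows lie inside the gene models of the deposited table, away from their ends. Those models run from 5941280 to 6044290 for Synj2 and from 112850873 to 112868228 for Gpr132.

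**Figure D2:**
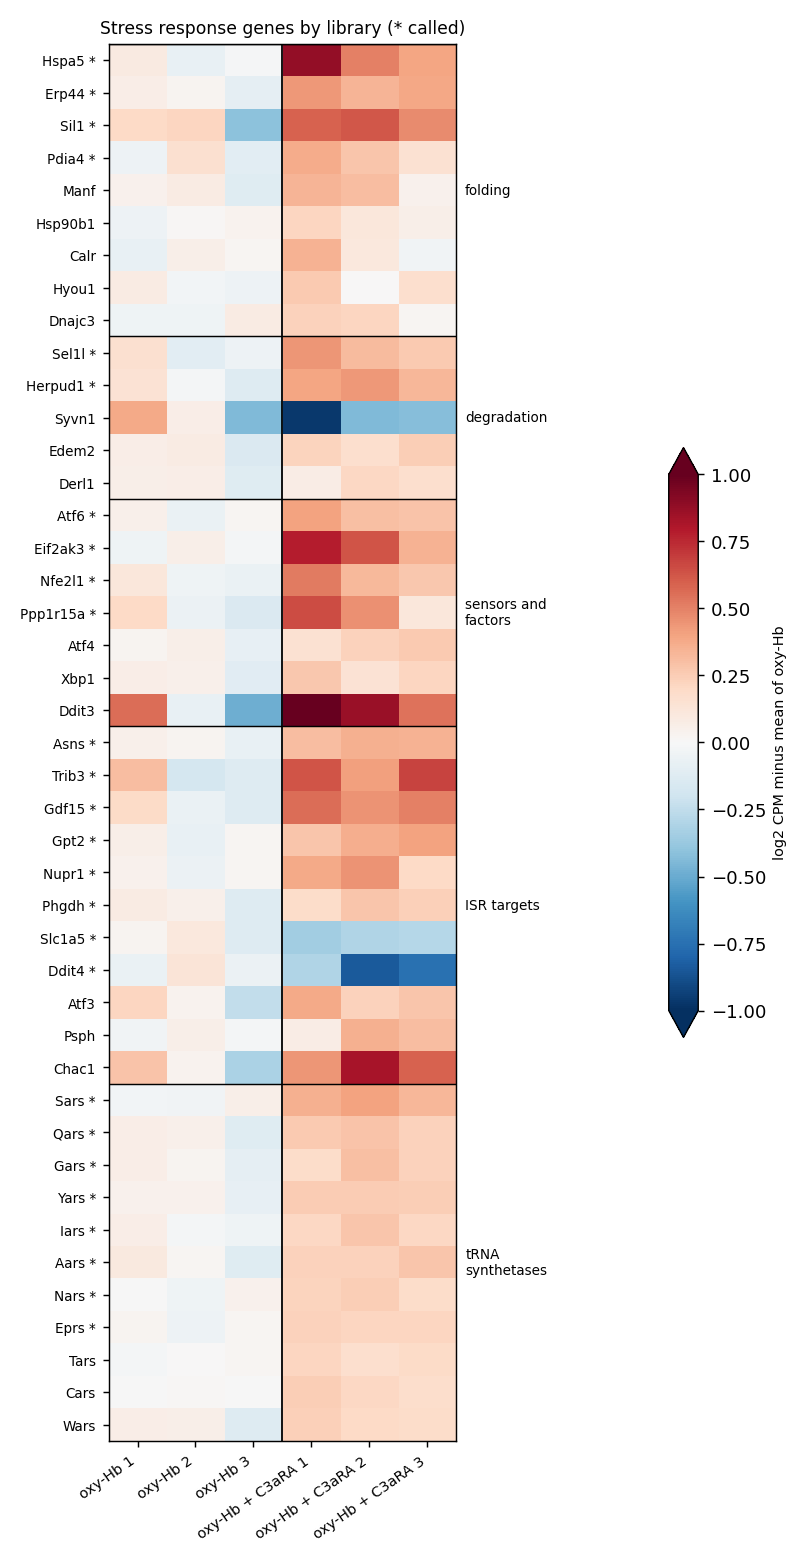
Log2 CPM of each gene in each library minus the mean of the 3 oxy-Hb libraries, for genes of ER folding and degradation, sensors and factors, integrated stress response (ISR) targets and tRNA synthetases. Columns are libraries, colour runs from -1 (blue) to 1 (red), and an asterisk marks a called gene. In Sars, Asns and Hspa5 all 3 C3aRA columns are red, and Ddit4 and Slc1a5 are blue.

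Fasn and Scd2, of fatty acid synthesis, and 4 genes of the cholesterol list fell. Fasn (ENSMUSG00000025153, chromosome 11, 120805846 to 120824547), fatty acid synthase, stood at 84.2, 90.8 and 86.9 CPM with oxy-Hb and 54.4, 44.9 and 65.1 CPM with C3aRA, a log2 fold change of -0.67 ± 0.10 (SE) with an adjusted p of 0.000213 in edgeR. Scd2, a stearoyl-CoA desaturase, went from 606, 628 and 634 CPM to 500.3, 438 and 498 CPM (-0.38 ± 0.07, adjusted p = 0.00105). These were the 2 called of 20 genes of fatty acid synthesis and desaturation, and both calls held in all 6 fits. Of 26 genes of cholesterol synthesis and uptake, 4 fell and 0 rose, with 20 of the 26 at or below zero and a median of -0.08. Over all genes 1.94% fell and 47.9% lay above zero. Among the 4 falls were Hsd17b7 (-0.58), Sc5d (-0.37) and Msmo1 (-0.25), enzymes of late sterol synthesis. Hsd17b7 stood at 17.8, 17.9 and 21.7 CPM against 12.6, 12.3 and 13.5 CPM. The regulator Srebf1 did not pass (-0.32 ± 0.12, adjusted p = 0.123). The 4 sterol calls fell to 0 without C3aRA replicate 1 and to 1 without oxy-Hb replicate 2 or 3 or C3aRA replicate 2 or 3, while 5 were called with total count scaling. The sterol element TCACNCCAC, searched on both strands, stood in the promoter of 1 of 20 cholesterol genes, 1 of 18 fatty acid genes and 1.33% of tested genes. Lipid efflux and storage genes showed 1 rise among 22, that of Npc2, which moves cholesterol out of lysosomes (0.23), and Abca1 did not pass (-0.32, adjusted p = 0.16). The share called in that list, 4.55%, was near the 4.43% of all genes.

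Secreted inflammatory proteins moved in both directions. Of 20 tested, 4 rose, Lcn2, Tnf, Il1rn and Ptgs2, and 2 fell, Csf1 and Tnfsf13b. The share called was 30%, against 4.43% over all genes. Tnf stood at 186, 174 and 145 CPM with oxy-Hb and 248.7, 224 and 207 CPM with C3aRA, without overlap (0.43 ± 0.08, adjusted p = 0.00253). Il1rn, the antagonist of the interleukin-1 receptor, rose from 121, 114 and 125 CPM to 161, 145 and 152 CPM (0.35 ± 0.07, adjusted p = 0.00493). Ptgs2, the prostaglandin synthase COX-2, rose by 0.33 with overlapping groups. Csf1, a growth factor of microglia, fell from 96.5, 92.6 and 98.4 CPM to 76.2, 58.9 and 73.4 CPM (-0.46 ± 0.09, adjusted p = 0.00241). Tnfsf13b, the B cell factor BAFF, went from 14.7, 16.3 and 17.4 CPM to 9.90, 9.49 and 10.0 CPM (-0.72 ± 0.16, adjusted p = 0.00908). Il6 stood at 5.10, 4.40 and 3.48 CPM against 6.46, 6.56 and 6.84 CPM; the groups did not overlap but it did not pass (0.62 ± 0.24, adjusted p = 0.137). The calls of Lcn2, Tnf and Csf1 held in all 6 fits, that of Il1rn was lost without C3aRA replicate 1 or oxy-Hb replicate 2, and that of Ptgs2 without oxy-Hb replicate 2 or 3 or C3aRA replicate 1 or 3. That of Tnfsf13b was lost without C3aRA replicate 2. Nos2, the inducible nitric oxide synthase, varied widely among C3aRA libraries, at 95.9, 38.8 and 79.7 CPM against 83.6, 67.2 and 66.5 CPM (-0.02 ± 0.38). Il1b and Arg1 had 5 to 17 and 5 to 28 counts per library and were not tested.

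Of 13 tested chemokine ligands, 3 rose and 0 fell. Ccl3, a chemokine of activated macrophages, stood at 2262, 2135 and 1972 CPM with oxy-Hb and 3212, 2838 and 2603 CPM with C3aRA (0.44 ± 0.07, adjusted p = 0.000606), and its call held in all 6 fits. Cxcl2, which attracts neutrophils, went from 6.76, 5.64 and 7.14 CPM to 12.1, 11.9 and 10.2 CPM (0.81 ± 0.19, adjusted p = 0.0143). Ccl7 rose from 38.6, 34.5 and 31.5 CPM to 44.9, 47.2 and 50.3 CPM (0.45 ± 0.11, adjusted p = 0.0137). Ccl2, the main monocyte attractant, did not pass, at 180.2, 244 and 226 CPM against 221, 238 and 220.2 CPM (0.06 ± 0.08, adjusted p = 0.746). Ccl6 lay lower, at 34.2, 46.4 and 58.2 CPM against 24.2, 27.1 and 36.03 CPM, with overlapping groups, and did not pass (-0.66 ± 0.18, adjusted p = 0.0566). It passed, as a fall, without oxy-Hb replicate 1 (adjusted p = 0.000517), without C3aRA replicate 3 (0.00621) and with total count scaling (0.0435), and also in limma-voom but not in DESeq2 (0.126). The count of chemokine rises was 1 without oxy-Hb replicate 2 and 2 to 4 without another library. Among 34 NF-kB subunits, inhibitors and targets, Nfkbiz (0.37) and Cflar (0.26) rose and Tifab fell. In 44 immediate early and ERK feedback genes 5 rose, Rgs1 (0.45), Btg1 (0.41), Dusp16 (0.38), Ier3 (0.32) and Dusp4 (0.29), and 0 fell, with 1 called without C3aRA replicate 1 and 2 without oxy-Hb replicate 2. The AP-1 genes Fos (0.20, adjusted p = 0.566) and Jun (-0.08, adjusted p = 0.697), named after their values were seen, did not pass. Of 44 interferon-stimulated genes Sp140, a chromatin reader (0.60), rose and Oas2 (-0.42) fell, a share (4.55%) near the 4.43% of all genes.

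Among lysosomal genes, Atp6v0d2 and Ctsb rose, and most members did not pass. Of 44 tested, 7 rose and 0 fell, 39 had a positive log2 fold change, and the median was 0.10. Over all genes 2.48% rose and 47.9% had a positive log2 fold change. Atp6v0d2, a subunit of the lysosomal proton pump, stood at 79.1, 66.5 and 65.5 CPM with oxy-Hb and 116, 98.9 and 102 CPM with C3aRA (0.58 ± 0.09, adjusted p = 0.000204). Ctsb, the protease cathepsin B, went from 2753, 2705 and 2338 CPM to 3256, 3197 and 3081 CPM (0.29 ± 0.07, adjusted p = 0.0137). Smaller rises included those of Hexa, a lysosomal hydrolase (0.25), Lgmn, the protease legumain (0.25), Atp6v1a (0.23) and Npc2 (0.23). Of 29 autophagy genes Sqstm1 and Atg12 (0.52) rose, and Wipi1 (0.66, adjusted p = 0.0956) did not pass. The lysosomal count was 2 without oxy-Hb replicate 2 or C3aRA replicate 1, 1 without C3aRA replicate 2 and 2 with total count scaling, and Atp6v0d2 and Sqstm1 held in all 6 fits.

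No difference in the C3a receptor gene was detectable at this depth and number of libraries. C3ar1 stood at 61.1, 77.0 and 68.02 CPM with oxy-Hb and 63.6, 61.7 and 61.9 CPM with C3aRA (-0.14 ± 0.09, adjusted p = 0.436). C3 (0.35 ± 0.13, adjusted p = 0.132), C5ar1 (-0.06, adjusted p = 0.86) and C5ar2 (0.03, adjusted p = 0.976) did not pass in edgeR either. Of 14 complement genes Itgam (0.36) and Itgb2 (0.29) rose, the chains of complement receptor 3, which binds opsonised particles. The share called was 14.3%, against 4.43% over all genes. Itgam stood at 42.2, 37.9 and 45.1 CPM against 57.2, 54.3 and 48.7 CPM, with the call held in 2 of the 6 fits. Neither was called without oxy-Hb replicate 2, C3aRA replicate 1 or C3aRA replicate 2, nor with total count or upper quartile scaling.

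Among other receptors, Gpr132 and Cd180 fell. Of 31 G protein-coupled receptors of myeloid cells, 2 fell and 1 rose, a share of 9.68% against 4.43% called over all genes. Gpr132, a receptor for oxidised lipids and lactate, went from 41.3, 44.7 and 43.4 CPM to 24.1, 27.8 and 27.7 CPM, without overlap (-0.70 ± 0.11, adjusted p = 0.000316), and its call held in all 6 fits. Gpr183, a receptor for oxysterols, fell with overlapping groups (-0.52), and its call held in 1 of the 6 fits. Adgre1, the macrophage marker F4/80, rose by 0.23. The count of rises in this list was 1 without oxy-Hb replicate 1 and 0 without any other library. It was also 0 with total count or upper quartile scaling. Cd180, a relative of the Toll-like receptors, fell from 51.9, 63.3 and 64.4 CPM to 39.0, 40.4 and 41.1 CPM (-0.58 ± 0.10, adjusted p = 0.00104). Among 41 genes of G protein signalling Rgs1, which shortens Gi signals, and Pde4b, a cAMP phosphodiesterase (0.40), rose, and Gnas, the Gs alpha subunit (-0.57), fell. The share called was 7.32%, against 4.43% over all genes. With 1 library left out, rises in this list numbered 0 to 3 and falls 0 to 1. Without C3aRA replicate 1 there were 0 rises, and 0 calls of the list held in all 6 fits.

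Of 32 tested genes of haem and iron handling, 0 rose and 2 fell, Lrp1 and Tfrc, the transferrin receptor (-0.39). The share called was 6.25%, against 4.43% over all genes, of which 1.94% fell. Tfrc stood at 258, 322 and 359 CPM against 224, 262 and 233 CPM, with overlapping groups and a call held in 3 of the 6 fits. Hmox1, haem oxygenase 1, stood at 918, 817 and 768 CPM against 999.7, 762 and 904 CPM and did not pass (0.09 ± 0.08, adjusted p = 0.599). Fth1, the ferritin heavy chain, did not pass (0.19 ± 0.07, adjusted p = 0.134). Sqstm1 was the 1 of 33 NRF2 oxidative stress genes that rose, and Sat1, a polyamine acetylase, rose among 30 ferroptosis genes (0.41 ± 0.08, adjusted p = 0.00232). Mt1, a metallothionein that binds zinc, fell from 195, 235 and 239.5 CPM to 173, 130.4 and 133 CPM (-0.62 ± 0.09, adjusted p = 0.000824), and Slc30a4, a zinc exporter, rose (0.25). The calls of Sqstm1, Sat1 and Mt1 held in all 6 fits.

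Spp1 and some immune receptor and phagocytosis genes rose, while others fell or did not pass. Of 38 tested genes of disease-associated microglia and phagocytosis, 6 rose and 2 fell, with a median of 0.10. The share called was 21.1%, against 4.43% over all genes. With 1 library left out, rises numbered 3 to 7, and 4 calls of either direction held in all 6 of these fits. Spp1, osteopontin, stood at 10449, 9724 and 8923 CPM with oxy-Hb and 12608, 12407 and 12511 CPM with C3aRA (0.37 ± 0.07, adjusted p = 0.00194). Lilrb4a, an inhibitory receptor, went from 869.8, 674 and 741 CPM to 1181, 992 and 951 CPM (0.45 ± 0.08, adjusted p = 0.00313). Its call was lost without oxy-Hb replicate 3. Its relative Lilr4b rose likewise (0.44), and reads of these near-identical genes may be shared between them. Anxa5 (0.30), Ctsb, Lyz2 (0.29) and Mfge8 (0.28), a bridge between apoptotic cells and phagocytes, rose too, while Cd180 and Csf1 fell. The values of Trem2 were -0.05 (adjusted p = 0.785) and of Apoe 0.14 (adjusted p = 0.272). Of 23 homeostatic genes 3 rose, Itgam and Entpd1, an ATP-degrading ectoenzyme (0.33), among them, and 0 fell, although the median was -0.06; with total count scaling 0 rose and 1 fell. Tmem119 and P2ry12, defining homeostatic markers, stood at 0.239 to 3.81 CPM and did not pass (adjusted p = 0.523 and 0.312). In the lineage marker list, which shares genes with these, Lyz2, Itgam and Adgre1 rose. The count of rises there was 0 without oxy-Hb replicate 2 or C3aRA replicate 1.

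MHC class I genes rose in part, 4 of 21, a share of 19.05% against 4.43% called over all genes. Their median was 0.23, against -0.01 over all genes. H2-D1 stood at 409, 403 and 394 CPM against 519.8, 464 and 480.5 CPM (0.28 ± 0.07, adjusted p = 0.0127), H2-K1 rose by 0.30, B2m, the light chain, by 0.27, and H2-T23 by 0.32. Class I heavy chains share reads with their paralogs, so their separate counts are uncertain. None of the 4 was called without oxy-Hb replicate 2 or without C3aRA replicate 1. Of 9 class II and costimulatory genes 0 passed in edgeR or in DESeq2, and 5 had an unadjusted p below 0.05. Cd40 stood at 0.32 (adjusted p = 0.123) and Cd274 at 0.35 (adjusted p = 0.0641).

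**Figure D3:**
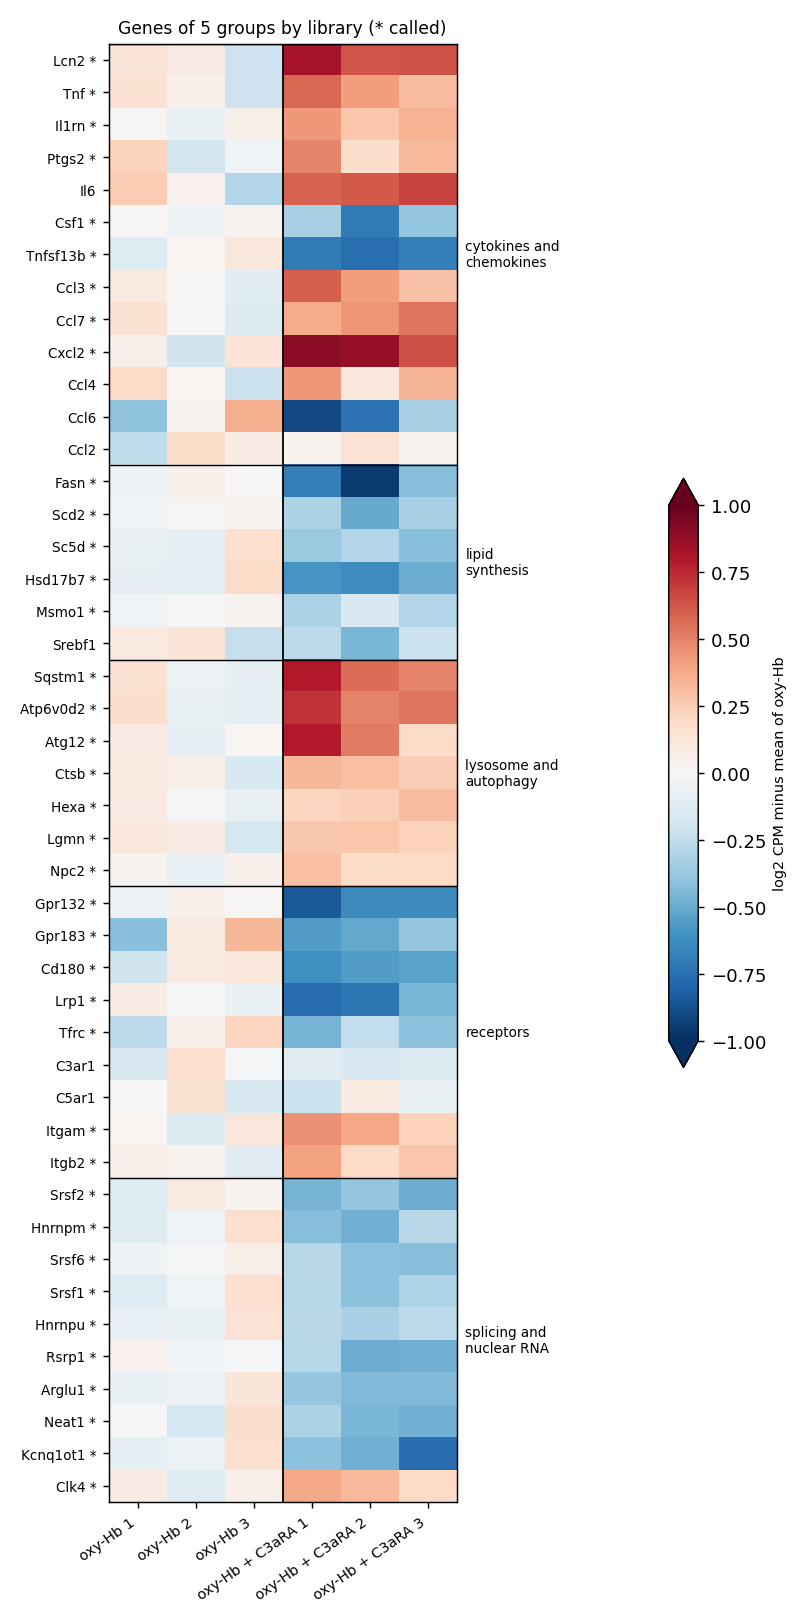
Log2 CPM per library minus the mean of the oxy-Hb libraries, for cytokines and chemokines, lipid synthesis, lysosome and autophagy, receptors, and splicing and nuclear RNA. Columns are libraries, colour runs from -1 (blue) to 1 (red), and asterisks mark called genes. The lysosomal genes drawn are red in the C3aRA columns, and the lipid synthesis and splicing genes blue except for Clk4, while C3ar1 and C5ar1 are pale throughout.

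Some splicing factors fell and fewer rose. Of 39 splicing factors, 9 fell and 3 rose, with a median of -0.08. The share called was 30.8%, against 4.43% over all genes. Srsf2, an SR protein, stood at 87.0, 101 and 97.0 CPM with oxy-Hb and 68.9, 72.8 and 67.3 CPM with C3aRA (-0.45 ± 0.08, adjusted p = 0.00194). Hnrnpm went from 226, 239.8 and 277 CPM to 184, 176 and 204 CPM (-0.40 ± 0.08, adjusted p = 0.00224). Srsf6 (-0.37), Hnrnpd (-0.37), Srsf1 (-0.34), Hnrnpu (-0.29), Sf3b3 (-0.29), Hnrnph1 and Srsf3 fell, and Clk4, a kinase of SR proteins (0.30), Prpf6 and Sf3b2 rose. The calls of Srsf2, Hnrnpm and Srsf6 held in all 6 fits. Falls numbered 3 to 6 in every fit but that without oxy-Hb replicate 1, which had 9, and rises 0 to 1 in every fit but that without oxy-Hb replicate 3, which had 3. Of 1539 long noncoding RNAs tested, 37 fell, a share close to that of all genes (265 of 13625). Rises numbered 2, a smaller share than over all genes (338 of 13625). Neat1, the scaffold of nuclear paraspeckles, went from 1423, 1262 and 1604 CPM to 1141, 1038 and 1021 CPM (-0.42 ± 0.07, adjusted p = 0.00105), and the imprinted Kcnq1ot1 fell by 0.55 on the log2 scale. Malat1 did not pass (0.05 ± 0.24, adjusted p = 0.949). Jpx, an activator of the X inactivation locus, fell (-0.82), while Neat1, Kcnq1ot1 and Malat1 were named after their values were seen. Of 50 tested genes with the lysine degradation term of the deposited table, 5 fell, all of them histone methyltransferase genes. They were Kmt2d, Kmt2b (-0.53), Setd1a (-0.52), Kmt5c (-0.41) and Kmt2a (-0.32). Histone methyltransferase genes were not examined as a list.

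Composition of the transcripts differed between called rises and falls. Called rises had a median GC content of 45.8% and called falls 51.5%, against 49.1% for all tested genes, and median transcript lengths of 3419, 4010 and 3016 bases. Level differed too, with a median of 133.7 CPM for called rises, 34.0 CPM for called falls and 25.3 CPM for all tested genes. The shares called in lists and over all genes were not matched for level, and its part in them was not tested. With the tested genes in 5 equal groups by GC content, from least to most, rises went from 105 to 23 and falls from 36 to 84. The share of counts on long intergenic RNAs was 0.826% to 0.975% in oxy-Hb libraries and 0.729% to 0.829% in C3aRA libraries. With transcript length and GC content removed per library by splines, 501 genes rose and 421 fell, the GC groups held 84 to 113 rises and 74 to 102 falls, and 560 of the 603 calls (92.9%) were shared. In that fit Lrp1 (-0.52), Kmt2d (-0.47), Sqstm1 (0.63) and Fasn (-0.60) stayed called. Hspa5 stood at 0.57 with an adjusted p of 0.069, Lilrb4a at 0.40 with 0.069, Ptgs2 at 0.27 with 0.10, Kmt5c at -0.33 with 0.053 and Kcnq1ot1 at -0.15 with 0.28, so these calls ended. In this fit 12 splicing factors fell and 3 rose, 12 lysosomal and 11 synthetase genes rose. Whether composition or library preparation bears on the remaining differences was not tested.

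**Figure D4:**
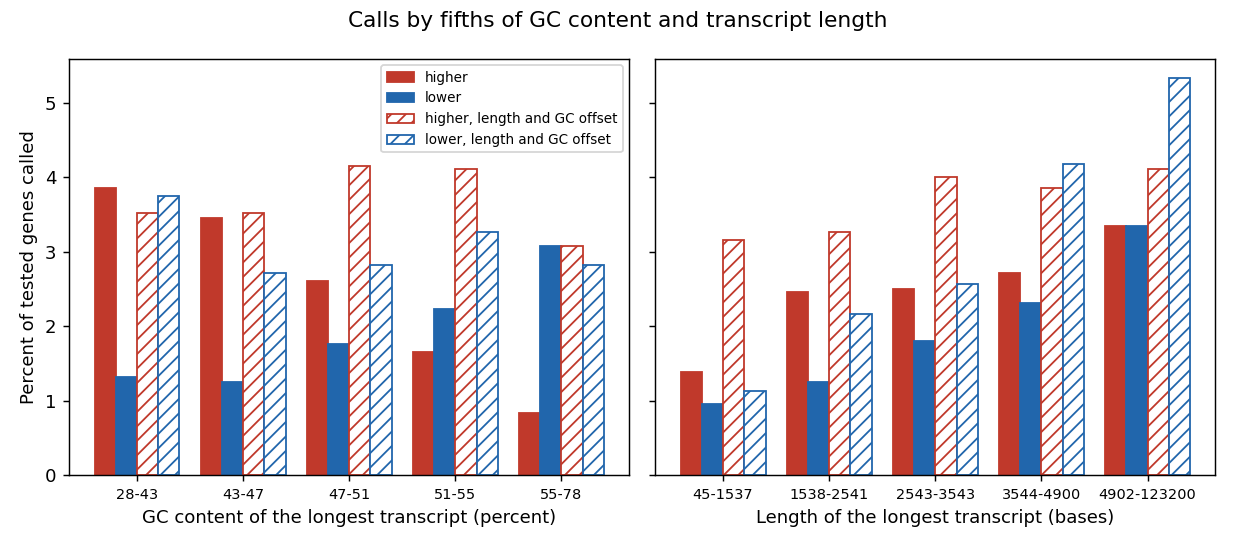
Percent of tested genes called in each of 5 equal groups by GC content (left) and length (right) of the longest transcript, higher in red and lower in blue. Filled bars are the fit without and hatched bars the fit with a length and GC offset. Filled red bars drop and blue bars climb from low to high GC, and hatched bars are more level across GC but still climb with length.

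Lists of translation, energy and growth are given by their counts. Over all genes 4.43% were called, 2.48% higher and 1.94% lower. The shares called lay near this in the cell cycle (4%), histone (4.55%), clock (5%), matrix protease (5.26%) and proteasome (5.41%) lists. Of 78 cytosolic ribosomal protein genes 9 rose and 0 fell, with a median of 0.11 and rises from 0.23 for Rpl4 to 0.30 for Rpl26. They share reads with many pseudogenes. The count was 0 without C3aRA replicate 2, 2 to 4 without oxy-Hb replicate 1 or 2 or C3aRA replicate 1, and 23 with length and GC removed. Of 77 nuclear-encoded respiratory chain genes Cox7a2l rose (0.26), and of 12 mitochondrially encoded mRNAs mt-Cytb fell (-0.34), with overlapping groups. Glycolysis and hypoxia genes showed a rise of Bnip3l, a mitophagy receptor (0.25), and a fall of Slc16a3, a lactate exporter (-0.36), among 30. Of 50 cell cycle genes Top2a (0.26) rose and Ccnd2 (-0.29) fell. Among 26 p53 targets Plk2 and Gdf15 rose, and among 27 BCL2 family and caspase genes Bid, which links caspase-8 to mitochondria, fell (-0.33). Proteasome subunits showed 2 rises among 37, Psmd10 (0.34) and Psmb1 (0.23). Rora was the 1 of 20 clock genes called, Plau, the urokinase (0.28), the 1 of 19 matrix protease genes, Spp1 the 1 of 16 growth factors and Hist1h4i (-0.47) the 1 of 22 histone genes. No cytosolic or mitochondrial heat shock gene of 28 passed in edgeR; 7 had an unadjusted p below 0.05, and 3 rose in DESeq2.

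**Figure D5:**
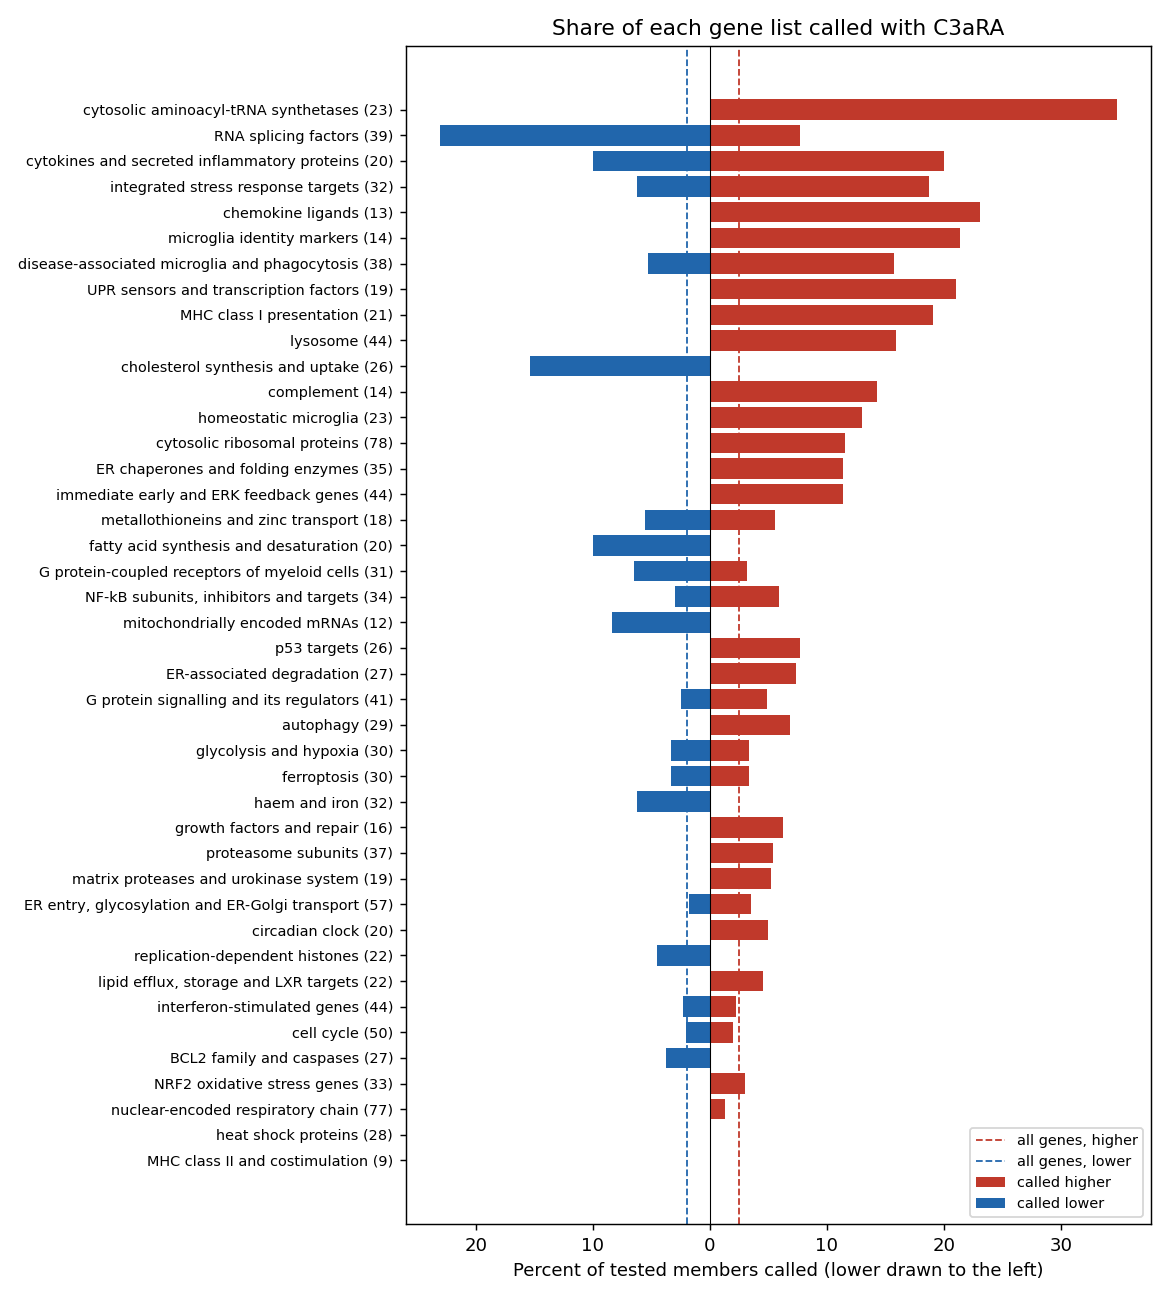
Percent of tested members called higher (red, to the right) and lower (blue, to the left) in each gene list with at least 9 tested genes, the number tested in brackets. Dashed lines are the shares over all 13625 genes, 2.48% higher and 1.94% lower. Synthetases reach 34.8% higher, and splicing factors are the list with the greatest share lower.

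By the pathway terms of the authors' deposited table, 278 pathways had 15 to 300 tested genes, and 3.85% of the 4394 genes with a term rose and 1.96% fell. The greatest share of rises was in 2-oxocarboxylic acid metabolism, with 4 of 15, including Gpt2, Idh2 (0.28) and Got1 (0.27), enzymes that make or use 2-oxoglutarate. Antigen processing had 8 of 42, aminoacyl-tRNA biosynthesis 8 of 44 and other glycan degradation 3 of 16, including Hexa and Manba (0.27). The graft and autoimmune terms with shares near these held Tnf and class I genes, with Cpe in 1 of them. The greatest share of falls was in ovarian steroidogenesis, with 3 of 17, including Gnas and Hsd17b7, then protein digestion with 2 of 19, the amino acid carriers Slc1a5 and Slc36a1 (-0.46), and lysine degradation with 5 of 50, the methyltransferase genes given above. These terms overlap and were not tested.

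In the authors' deposited table for the same libraries, whose test the sources used here do not name, 715 genes had an adjusted p below 0.05, 473 higher and 242 lower. With the same sign, 566 genes were called in both, 93.9% of the 603 calls made here and 79.2% of the authors', and 0 with opposite signs. Both analyses use the same counts, so the overlap is no independent support. Zfp865 appears in the table under 2 rows that share position and counts, and both were called lower.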

How the data were processed

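RNA of BV2 cells was sequenced from total RNA, per the labels' protocols. The table that the authors deposited gives raw read counts per gene. It also holds the authors' log2 fold changes, p-values and adjusted p-values. Per the submitters' processing notes the genome builds were GRCm38 and mm10. No source used here names the aligner, counter, strand setting or the authors' test, so overlapping and antisense genes cannot be told apart. The oxy-Hb counts were the same in both deposited tables (0 differed). Symbols that a spreadsheet had turned into dates were restored from the identifiers (19).

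The 6 libraries' counts entered edgeR 4.0.16 (R 4.3.3): filterByExpr (minimum count 10), TMM, robust quasi-likelihood F test, Benjamini-Hochberg adjustment over 13625 genes, a threshold of 0.05 and no minimum fold. The biological coefficient of variation was 9.81%. CPM of single genes are TMM-scaled, and sums over lists use library totals. Errors are SEs of the fit. Replicates were no copies of each other (mean chi-square per gene 5.54 to 10.6). In simulated counts, 54%, 74%, 86% and 90% of genes changed 1.5, 2, 3 and 4 fold were recovered, with 6 false calls among 13183 unchanged genes. Apart from the changed genes, all simulated libraries had the same expected share of counts per gene. Shifts by GC content or by library were thus absent, and false calls that they may bring were not measured.

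Members and gene lists (48) were chosen with earlier results of these data known, so no list was tested. Genes named were the 12 largest rises and falls and the 10 of lowest p in each direction (mean of at least 5 CPM, groups not overlapping, no model symbol), up to 8 called and 3 uncalled members of each list, a panel of 20 and up to 4 genes per pathway described. Some genes taken by the rule are counted only, and a few items are not reported here. Genes outside it, chosen after their values were seen or to complete a count, are the markers, Srebf1, Fos, Jun, Neat1, Kcnq1ot1, Malat1, Setd1a, Hnrnph1, Srsf3, Prpf6, Sf3b2, Slc1a4, Zfp865 and most chaperones with the ER stress element. Alternatives were other scalings, filters, DESeq2 1.42.0, limma 3.58.1, other sample sets, a replicate block, each library left out, thresholds, protein-coding genes and a length and GC offset from GENCODE M21. Promoters are RefSeq, GRCm38.p6.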

Additional observations from a re-analysis of the deposited data

How the results depend on the processing

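The count of genes changed with C3aRA (603) stayed within 1.5 times under 3 other scalings, 2 other filters, DESeq2 (777), limma-voom (545), limma-voom with quality weights (785), edgeR without robust (559), protein-coding genes alone (633) and the 8-library fit without C3a replicate 2 (475), the last chosen after seeing the data. It was 0 in the 9-library fit (0 higher, 0 lower), 922 with a length and GC offset (421 lower), 133 at adjusted p below 0.01 (66 higher, 67 lower) and 5 with a minimum fold of 1.2 (2 higher, 3 lower). Total count scaling gave 124 higher and 486 lower, and shared 389 of the 603 calls (64.5%), so a similar total did not mean the same genes. A mean of at least 5 CPM gave 295 and 341, so that rises were 46.4% of calls. Leaving out 1 library gave 131 to 655 calls, 61 to 375 higher and 69 to 280 lower. No named gene called in the 6 libraries changed direction under any of these. The labels used here do not say if replicate numbers pair the samples. Deviations of same-numbered libraries correlated at 0.06, 0.01 and -0.04, and those of libraries with unlike numbers at -0.06 to 0.05. These correlations cannot show if the samples were paired. With the replicate number as a block 542 genes passed (307 higher, 235 lower), and, chosen after seeing the data, the replicate block with the length and GC offset gave 1200 (670 and 530). The cause of these differences was not tested.

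Limits: changes are mostly under 1.5-fold, the smallest change simulated (54% recovered), so recovery at their size was not measured and genes that did not pass may differ. With 3 libraries a group, 12 rises and 33 falls were called in none of the 6 fits that left out 1 library. Proteins were not examined, so a search for ER retention signals was not run.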

Other observations

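Several genes outside the lists kept their calls whichever library was left out, and are given here as values, chosen after the values were seen. Odc1, the ornithine decarboxylase that starts polyamine synthesis, stood at 1125, 1069 and 1079 CPM with oxy-Hb and 1318, 1374 and 1460 CPM with C3aRA (0.34 ± 0.07, adjusted p = 0.0021 in edgeR). Aqp9, a channel for water and glycerol, rose by 0.56, Kdm7a, a histone demethylase, by 0.44, Klhl24 by 0.40 and Pdcd4, an inhibitor of translation initiation, by 0.51. Ogt, the O-GlcNAc transferase, stood at 328, 306 and 346 CPM against 272, 244 and 255 CPM (-0.35 ± 0.07, adjusted p = 0.00301), and Ddx17 (-0.35), Sfpq (-0.44) and Arglu1 (-0.43), which act on nuclear RNA, fell.

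The largest log2 fold changes among the calls were at levels below 5 CPM, mostly in gene models without a given symbol. Lgr4, a receptor for R-spondins, stood at 1.15, 1.02 and 0.745 CPM with oxy-Hb and 3.59, 2.36 and 2.75 CPM with C3aRA (1.56, adjusted p = 0.0325 in edgeR). Grk4, a receptor kinase, went from 2.23, 1.503 and 2.11 CPM to 0.399, 0.191 and 0.878 CPM (-1.94, adjusted p = 0.0358), with its lowest library close to the level of 3 counts. With 1 library left out, each of these calls remained in 1 of 6 fits. Of the 603 calls, 50 were gene models without a given symbol.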
